A study of Homo sapiens with 8 samples.

Results

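The CCAAT/enhancer-binding proteins (C/EBPs) were examined as 5 genes, CEBPA, CEBPB, CEBPD, CEBPG and CEBPZ, found by symbol in a table of read counts for 27696 genes. The RNA came from IMR90 cells, a primary fibroblast strain of human embryonic lung, incubated for 3 days in medium that IMR90 ER:RAS cells had conditioned. In those donor fibroblasts 4-hydroxytamoxifen (4-OHT) switches on a RAS fusion and drives oncogene-induced senescence. The medium was taken at day 0, 4, 7 or 10 of 4-OHT, and each recipient group takes its name from that day (D0, D4, D7, D10). D0, which received medium of the same ER:RAS cells at the start of induction, is the control group. All recipients carried no ER:RAS and came from 2 independent experiments, which gives 2 libraries per group and 8 in all. The general methods for conditioned medium describe filtered medium, serum-free during conditioning and brought to 1% FBS. Those methods give a longer incubation than the 3 days of the RNA-seq methods, which do not state the serum. The comparison asks how the recipient fibroblasts respond as the secretome of the senescent cells matures.

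C/EBP proteins are transcription factors that bind DNA as dimers through a basic leucine zipper (bZIP). C/EBPβ, the product of CEBPB, is a regulator of the inflammatory secretome of senescent cells, and with C/EBPδ it drives acute phase and cytokine genes and the early steps of fat cell differentiation. CEBPG encodes a short family member that lacks a transactivation domain and works as a partner of other bZIP proteins. CEBPZ shares the name but has no leucine zipper, and its product works in the making of the large ribosomal subunit.

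Expression is given as CPM, the count of a gene scaled by edgeR's normalized library size. Total counts lay between 11708193 and 13395912. With 3 counts taken as the floor of detection, the floor was 0.218 to 0.251 CPM per library. The 10 fibroblast markers examined were all detected and summed to between 21220 and 58050 CPM, whereas summed markers of epithelial cells stayed between 0.316 and 0.820 CPM those of immune cells between 0.373 and 1.03 CPM, of endothelial cells between 1.49 and 4.35 CPM and of adipocytes between 0.237 and 6.13 CPM. Lung mesenchyme markers summed to 492 to 836 CPM, of which TBX4 lay at 0.0759 to 0.316 CPM. D10 replicate 2 stood apart, with COL1A1 at 1295 CPM against 8694 to 14500 CPM in the other 7 libraries, so the D10 values of the members are given by experiment. RNA was extracted from whole cultures, in which fewer cells and less RNA per cell cannot be told apart.

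Of the 5 genes, 4 have start sites in the RefSeq promoter table (GRCh38.p14), which holds 250 bases before to 50 bases after each start, and 6 such promoters were found because CEBPB and CEBPG have 2 each. CEBPD had none there, so the matches and absences given below do not cover it. Windows of 30 bases are shown for selected matches, chosen because they differ between the members, with the matched letters in capitals, each read 5′ to 3′ on the strand of the gene.
CEBPB, TATA box, chr20:50190789-50190818, plus strand: acgggccgccctTATAAAtaaccgggctca
CEBPB, core letters of the cAMP response element, chr20:50190761-50190790, plus strand: gaggggccggcgTGACGcagcggttgctac
CEBPA, TATA box, chr19:33302547-33302576, minus strand: cggcctgccgggTATAAAagctgggccggc
CEBPG, CCAAT box read as ATTGG, chr19:33373612-33373641, plus strand: agcctgcccacgATTGGtcgactgggctgc
CEBPG, CCAAT box read as ATTGG, chr19:33373673-33373702, plus strand: gccggcgctcccATTGGccgggatggcggc
CEBPZ, core letters of the cAMP response element, chr2:37231753-37231782, minus strand: cttcgaggggacTGACGcttacctgcgcgc

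The TATA box (TATAAA, searched on both strands like all motifs here) begins 29 bases before the downstream start of CEBPB and 30 bases before that of CEBPA, and is held by 11.5% of all 35116 promoters. TGACG was present in 24.6% and CCAAT in 34.6% of promoters, so a match to either is common. CCAAT was also present once in both windows of CEBPB, at the same position. The GC box GGGCGG was found in 4 of the 6 member promoters, against 45.0% of all. The 2 windows of CEBPB overlap and share the GC boxes that begin at 50190594 and 50190602. The 6 promoters were 62.7% to 80.7% GC, against a median of 58.7% over all promoters. How far this base composition sets the matches and absences was not tested. The 6 promoters held no match to the C/EBP core TTGCNNAA (10.5% of all promoters), the full cAMP response element TGACGTCA (1.85%, which contains TGACG), the STAT letters TTCNNNGAA (7.66%), an NF-κB consensus (1.91%) or the AP-1 letters TGANTCA (7.71%). Such matches describe these letters in these windows.

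CEBPB (ENSG00000172216.5, a single exon on chromosome 20 at 50190734 to 50192689, GRCh38) was the most abundant of the family per length at D4, D7 and D10. Its level was 87.4 and 60.6 CPM at D0, 101 and 69.0 CPM at D4, 90.1 and 83.9 CPM at D7, and 152 and 229 CPM at D10, in experiments 1 and 2. The D10 libraries lay above the other 6, and D0, D4 and D7 overlapped. The mean went from 74.0 ± 18.9 CPM (SD, n = 2) at D0 to 190.2 ± 54.8 CPM at D10.

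Within experiment 1 CEBPB was 1.73-fold higher at D10 than at D0, and within experiment 2 it was 3.78-fold higher. In the fit of all 8 libraries the log2 fold change was 1.36 (SE 0.31), which missed the threshold (edgeR's quasi-likelihood test, Benjamini-Hochberg adjusted p = 0.134). With the experiment as a replicate block the log2 fold change was 1.39 (SE 0.26) and passed the test (edgeR adjusted p = 0.0202), as it did in DESeq2 without the block (adjusted p = 0.00677), which called 2.17% of genes at D10 (379 genes). Without D10 replicate 2 the edgeR value was 1.03 (adjusted p = 0.547), and with the block and without that library it was 0.86 (adjusted p = 0.00993, 6.32% of genes called), where the lone D10 library is assumed to vary like the others. CEBPB at D10 was thus higher in both experiments, and whether it passed depended on the block, the tool and the filter on low counts (adjusted p = 0.0172 in edgeR with no filter, where 1.34% of genes were called).

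None of the 4 tested members passed the main test at D10, where 0.29% of the 13798 genes tested did (40 genes). None did at D4 or D7, where 0% of genes passed, with 409 and 599 genes at an unadjusted p under 0.05, or for D7 against D4 and D10 against D7, also 0% of genes, with 58 and 489 at an unadjusted p under 0.05. DESeq2 called 44 genes at D4, 112 at D7, 379 at D10, 1 for D7 against D4 and 66 for D10 against D7. With the replicate block the shares called were 0.275% at D4, 1.25% at D7, 4.99% at D10 and 0.319% for D10 against D7, and the members that passed were CEBPB at D10 and CEBPD at D7. For CEBPB the early days gave 0.20 (SE 0.31) at D4 and 0.23 (SE 0.31) at D7 on the log2 scale, against D0. Its slope was 0.125 (SE 0.034) log2 units per day of the medium (edgeR adjusted p = 0.134), where 1.18% of genes were called. Without D10 replicate 2 the slope was 0.081 (adjusted p = 0.366). It passed in DESeq2 (adjusted p = 0.0361, 2.97% of genes called) and not with the replicate block (edgeR adjusted p = 0.0638).

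**Figure D1:**
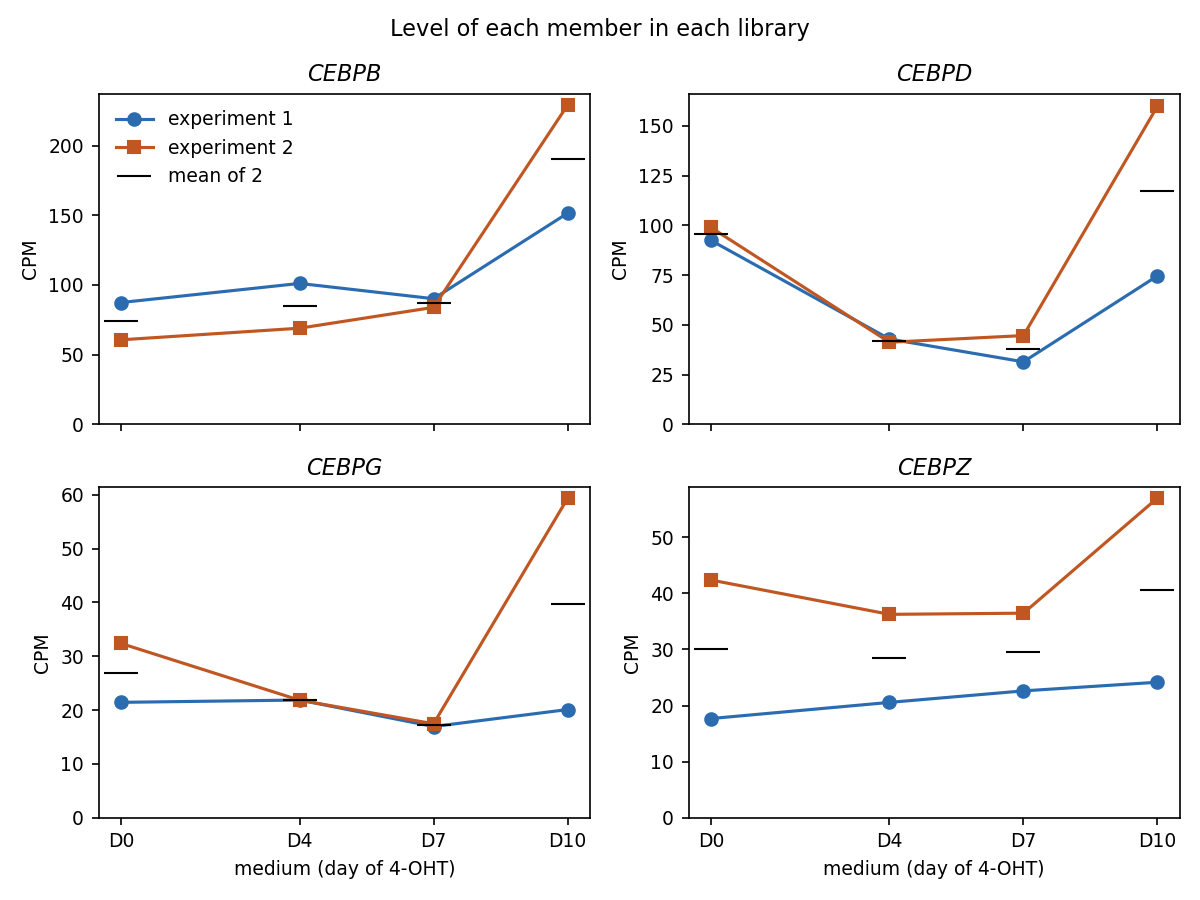
Level in CPM of CEBPB, CEBPD, CEBPG and CEBPZ in each of the 8 libraries, against the day of the medium, with a line for each of the 2 experiments and a dash for the mean of 2. CEBPB is highest at D10 in both experiments, CEBPD dips at D4 and D7 in both, CEBPG is high at D10 only in experiment 2 (59.3 CPM), and the lines of CEBPZ stay apart on every day.

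CEBPD (ENSG00000221869.4, a single exon on chromosome 8 at 47736909 to 47739086) was the member with the lowest levels in the early media relative to its own D0. It was at 92.4 and 98.9 CPM at D0, 42.8 and 41.2 CPM at D4, 31.4 and 44.6 CPM at D7, and 74.6 and 160 CPM at D10. All 4 libraries of D4 and D7 lay below all 4 of D0 and D10. At D4 CEBPD was 2.16-fold lower than at D0 in experiment 1 and 2.40-fold lower in experiment 2, and at D7 it was 2.94-fold and 2.22-fold lower.

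The fitted log2 fold changes of CEBPD were -1.19 (SE 0.36) at D4 and -1.33 (SE 0.36) at D7, with adjusted p-values of 1 and 0.579 in edgeR's quasi-likelihood test. With the replicate block the value at D7 was -1.36 (SE 0.25) and passed (edgeR adjusted p = 0.0472), as it did with the block and without D10 replicate 2 (-1.34, 5.49% of genes called), and the value at D4 was -1.18 (adjusted p = 0.129). Among the log2 changes of all 13798 genes within an experiment, CEBPD was in place 267 and 173 from the bottom at D4, and 95 and 369 from the bottom at D7, in experiments 1 and 2. The genes ranked share their D0 libraries across these comparisons, so that D4 and D7 are not independent.

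From D7 to D10 CEBPD was higher by 2.38-fold in experiment 1 and 3.59-fold in experiment 2. The fitted log2 fold change was 1.63 (SE 0.36), with an adjusted p of 0.750 in edgeR and 0.0103 in DESeq2, where 0.446% of genes were called, and the replicate block gave 1.59 (edgeR adjusted p = 0.0545). It also passed in edgeR with no filter (0.278% of genes called). Without D10 replicate 2 the block gave 1.07 (adjusted p = 0.0211, 0.536% of genes called). Against D0, the D10 level of CEBPD was 1.24-fold lower in experiment 1 and 1.62-fold higher in experiment 2, and the fit of 0.29 (SE 0.35) became -0.36 without D10 replicate 2. The level at D10 relative to the control therefore differed in direction between the experiments.

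**Figure D2:**
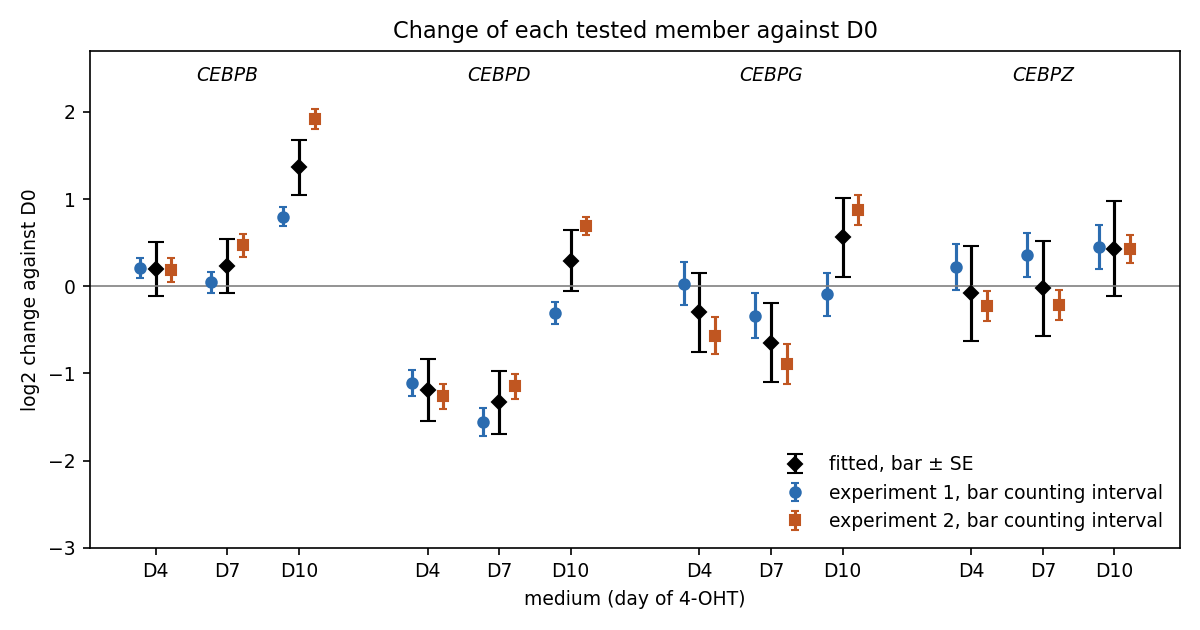
Log2 change against D0 of the 4 tested members at D4, D7 and D10, with the fitted value ± SE (diamonds) between the values of experiment 1 (circles) and experiment 2 (squares), whose bars are 95% counting intervals. CEBPD lies below 0 at D4 and D7 in both experiments, with fitted values of -1.19 and -1.33, and CEBPB lies above 0 at D10 in both, at 0.79 and 1.92.

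CEBPG (ENSG00000153879.8, on chromosome 19 at 33373330 to 33382686) was at 21.5 and 32.4 CPM at D0, 21.9 and 21.8 CPM at D4, 17.0 and 17.5 CPM at D7, and 20.1 and 59.3 CPM at D10. D10 replicate 2 held the highest value by far, and D10 replicate 1 lay within the range of the D0, D4 and D7 libraries. The log2 change within an experiment at D10 was -0.09 in experiment 1, with a counting interval of -0.34 to 0.16, and 0.87 in experiment 2, with an interval of 0.70 to 1.04. The fitted value of 0.56 (SE 0.45, edgeR adjusted p = 0.998) became -0.42 without D10 replicate 2. At D7 CEBPG was 1.26-fold lower in experiment 1 and 1.85-fold lower in experiment 2 (fitted log2 fold change -0.65, SE 0.46, edgeR adjusted p = 1). That value was -0.32 without D0 replicate 2 and -0.91 without D0 replicate 1.

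CEBPZ (ENSG00000115816.14, on chromosome 2 at 37201612 to 37231713, with 17 exon blocks) lay apart by experiment on every day. It was at 17.7 and 42.4 CPM at D0, 20.6 and 36.2 CPM at D4, 22.6 and 36.5 CPM at D7, and 24.1 and 56.9 CPM at D10. D4 and D7 were close, with a fitted log2 difference of 0.06 (SE 0.54), and of 0.08 (SE 0.18) with the replicate block. The lowest library of experiment 2 lay above the highest of experiment 1. Experiment 2 was 2.40-fold higher at D0, 1.76-fold at D4, 1.61-fold at D7 and 2.36-fold at D10. A test of experiment 2 against experiment 1 in the blocked fit, chosen after the values were seen, gave a log2 difference of 1.00 (SE 0.13, edgeR adjusted p = 0.00175), where 34.8% of genes were called, so a call there is not particular to CEBPZ. The same test gave 0.56 (adjusted p = 0.105) for CEBPG, 0.41 (adjusted p = 0.104) for CEBPD and -0.14 (adjusted p = 0.570) for CEBPB. Between D10 and D0 CEBPZ was 1.37-fold and 1.34-fold higher in the experiments, with a fitted value of 0.43 (SE 0.54, edgeR adjusted p = 0.998). The SE of that fit includes the difference between the experiments. With the replicate block the value was 0.43 (SE 0.18) and did not pass (edgeR adjusted p = 0.245).

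CEBPA (ENSG00000245848.2), the factor of terminal fat cell and myeloid differentiation, had 0 counts in both libraries of D0, then 0 and 1 at D4, then 4 and 2 at D7 and finally 0 and 1 at D10. All libraries but D7 replicate 1 were at or under the floor, and the gene did not enter the test. Its exon overlaps genes of the opposite strand over 43.4% of its bases, against 11.8% for CEBPB, 23.2% for CEBPZ and 0% for CEBPD and CEBPG, and strand handling of the counting is not given in the sources used here. Family member CEBPE, outside the 5 genes, had at most 1 count in a library.

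Levels of different genes were compared per kilobase of exon. CEBPB stood at 37.8 ± 9.67 CPM per kb (SD, n = 2) at D0 and CEBPD at 43.9 ± 2.11, and these overlapped. At D4 CEBPB stood at 43.5 ± 11.6 CPM per kb and CEBPD at 19.3 ± 0.523, at D7 at 44.5 ± 2.25 and 17.4 ± 4.29, and at D10 at 97.3 ± 28.0 and 53.8 ± 27.7. The order at D10 was CEBPB, CEBPD, CEBPZ and CEBPG, and the libraries of CEBPB lay above those of CEBPD. CEBPZ and CEBPG were lower, between 3.90 and 11.2 CPM per kb as group means, and their libraries overlapped at D0 and D10. Among 13771 tested genes with a length, CEBPB was ranked 1019 from the top at D0 and 348 at D10, and CEBPD went from rank 866 at D0 to 2328 at D7 and 690 at D10. CEBPG was ranked 5493 at D0, 7086 at D7 and 4213 at D10, and CEBPZ 4425 at D0 and 3509 at D10. The summed bZIP level was 92.0 and 83.8 CPM per kb at D0 and 116 and 204 CPM per kb at D10, and its D4 and D7 libraries, from 59.2 to 76.3 CPM per kb, lay below those of D0.

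The make-up of the C/EBP bZIP transcripts at D0 stood apart from that of the later days. CEBPB held 48.6% and 37.0% of their summed counts per length at D0, then 67.7% and 59.6% at D4, then 71.5% and 63.7% at D7 and finally 66.6% and 57.4% at D10. CEBPD held 46.1% and 54.2% at D0, then 25.8% and 32.0% at D4, then 22.4% and 30.4% at D7 and finally 29.5% and 36.0% at D10. CEBPG held between 3.92% and 8.77%. In each experiment CEBPB outweighed CEBPD more on every later day than at D0, with a ratio per length of 1.05 and 0.683 at D0, then 2.63 and 1.86 at D4, then 3.20 and 2.10 at D7 and finally 2.26 and 1.59 at D10. D0 lay below every other library. With 2 libraries per group an exact two-sided permutation test cannot go below 0.333, so the shares are given as a description.

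**Figure D3:**
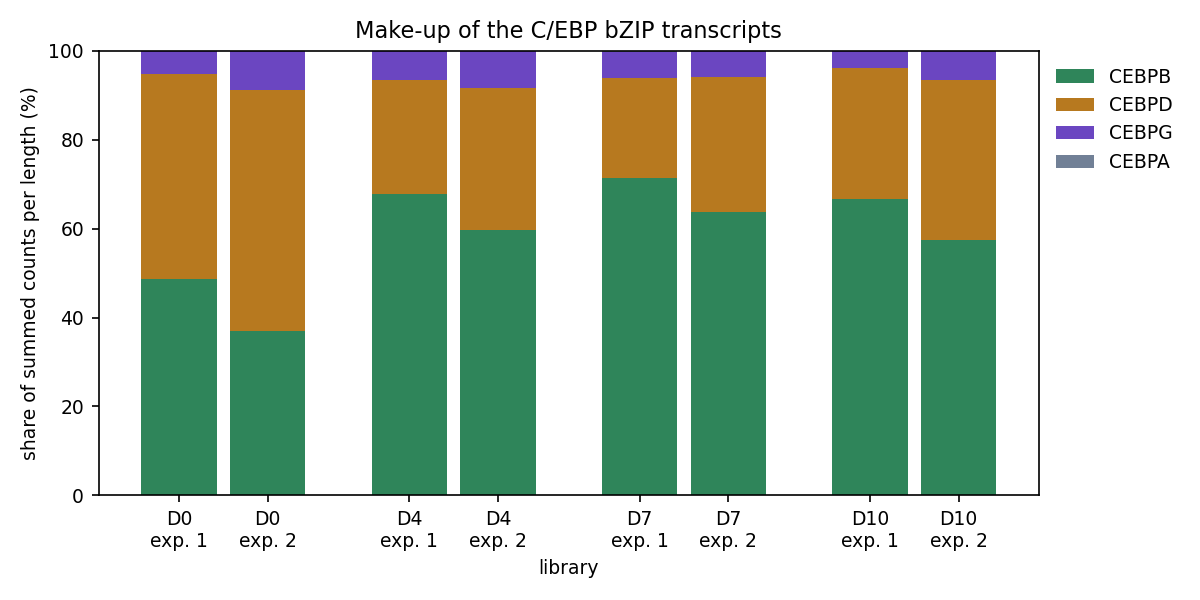
Share of the summed counts per exon length held by CEBPB, CEBPD, CEBPG and CEBPA in each library, stacked to 100%. CEBPB takes 37.0% to 48.6% at D0 and 57.4% to 71.5% in the media of later days, and CEBPA is too small to see.

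Genes near the C/EBP factors were read from lists. Among inflammatory and acute phase genes known for C/EBP sites, 22 were listed and 16 passed the filter on low counts. The genes called at D10 in the main test were C3, SOD2, IL1B and CXCL1. IL1B and CXCL1 passed the filter only through their D10 libraries, so they had to differ, and the number called is not read as a result about the list. C3, the central complement component, was at 2.68 and 2.91 CPM at D0 and 417 and 215.7 CPM at D10 (log2 fold change 6.82, SE 0.47, edgeR adjusted p = 0.0053). SOD2, a mitochondrial antioxidant enzyme, was at 167 and 224 CPM at D0 and 850 and 1721 CPM at D10 (2.71, SE 0.38, edgeR adjusted p = 0.048). IL1B, which encodes a proinflammatory cytokine, went from 0 and 0.0728 CPM to 11.7 and 57.0 CPM (edgeR adjusted p = 0.0379), and CXCL1, a neutrophil attractant, from 0.251 and 0.146 CPM to 28.9 and 90.3 CPM (edgeR adjusted p = 0.0181). All 4 were higher at D10 than at D0 in both experiments. Calls in this list numbered 4 in the main test (0.29% of all genes), 9 with the replicate block (4.99%) and 10 in DESeq2 (2.17%), all higher at D10. Leaving out a library gave 10 without D10 replicate 1, 3 without D10 replicate 2, 0 without either D0 library and 2 without any single D4 or D7 library. With at least 10 counts in every library 1 was called, and with the compared groups only 0 were.

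Related bZIP factors and partners, 8 tested of 10 listed, gave 0 calls in the main test, with the replicate block and in DESeq2. Their median log2 fold change at D10 was 0.08. DDIT3, named after its values were seen, was lower at D7 than at D0 in both experiments. It went from 37.5 to 23.45 CPM in experiment 1 and from 29.8 to 10.4 CPM in experiment 2 (edgeR adjusted p = 0.482 with the block). At D10 DDIT3 was at 25.9 and 47.5 CPM. ATF3, induced by stress, was higher in experiment 2 on every day, at 13.0 and 62.4 CPM at D10. DBP, a clock output factor, was at 5.53 and 3.20 CPM at D0 and 2.61 and 2.76 CPM at D10 (log2 fold change -0.70, edgeR adjusted p = 0.958).

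The 20 regulators of C/EBP genes and proteins were all tested, and 0 were called at D10 in the main test, with a median of 0.02. With the replicate block, which called 4.99% of all genes, 3 of the 20 were called, IL6R lower and IL1R1 and TRIB1 higher. IL6R, the interleukin-6 receptor, was at 28.0 and 26.4 CPM at D0, and at 10.2 and 7.61 CPM at D4, 11.8 and 7.37 CPM at D7 and 12.6 and 8.91 CPM at D10. It passed with the block on all 3 days (edgeR adjusted p = 0.0197, 0.0135 and 0.00595), and in DESeq2 without the block on all 3 days. It did not pass in the main test (edgeR adjusted p = 0.757, 0.315 and 0.149), and with no filter it passed at D7 and D10. The IL6R libraries of later days lay below those of D0. IL1R1, the interleukin-1 receptor, was at 108 and 137 CPM at D0 and 258 and 247 CPM at D10 (edgeR adjusted p = 0.0429 with the block).

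Of the adipocyte programme, 17 genes were listed and 11 tested, with 0 called in the main test and a median of -0.18 at D10. SCD, a fatty acid desaturase, went from 627 and 779 CPM at D0 to 303 and 260 CPM at D10 (edgeR adjusted p = 0.245, and 0.033 with the replicate block). DGAT2, a triglyceride synthesis enzyme, was at 0.587 and 1.02 CPM at D0 and 4.99 and 1.97 CPM at D10 (edgeR adjusted p = 0.318). The ribosome biogenesis genes, 17 of 17 tested, gave 0 calls at D10 in the main test and a median of 0.19, with WDR12 at 0.57 and MYC at 0.51 (edgeR adjusted p = 0.733 for both). WDR12 went from 16.4 to 22.9 CPM in experiment 1 and from 22.6 to 35.1 CPM in experiment 2, and MYC from 27.5 to 33.9 CPM and from 31.2 to 49.5 CPM. Proliferation and arrest genes, 12 of 12 tested, gave 0 calls in the main test, with the replicate block and in DESeq2, and a median of -0.11. CDKN2B, named after its values were seen, was at 24.9 and 36.9 CPM at D0 and 38.8 and 53.8 CPM at D7. At D10 it was at 41.3 and 24.1 CPM, higher than at D0 in experiment 1 and lower in experiment 2. Its fitted log2 fold change at D10 was 0.08 in the main test (edgeR adjusted p = 0.998). The fit with the block did not call it at D10 either (edgeR adjusted p = 0.885). CDK1 was at 1.93 and 2.91 CPM at D0 and 1.82 and 1.10 CPM at D10, so that it was lower mainly in experiment 2 (fitted log2 fold change -0.73, edgeR adjusted p = 0.998). CDKN2A was at 48.5 and 35.6 CPM at D0 and 40.0 and 22.9 CPM at D10 (-0.42, edgeR adjusted p = 0.998).

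**Figure D4:**
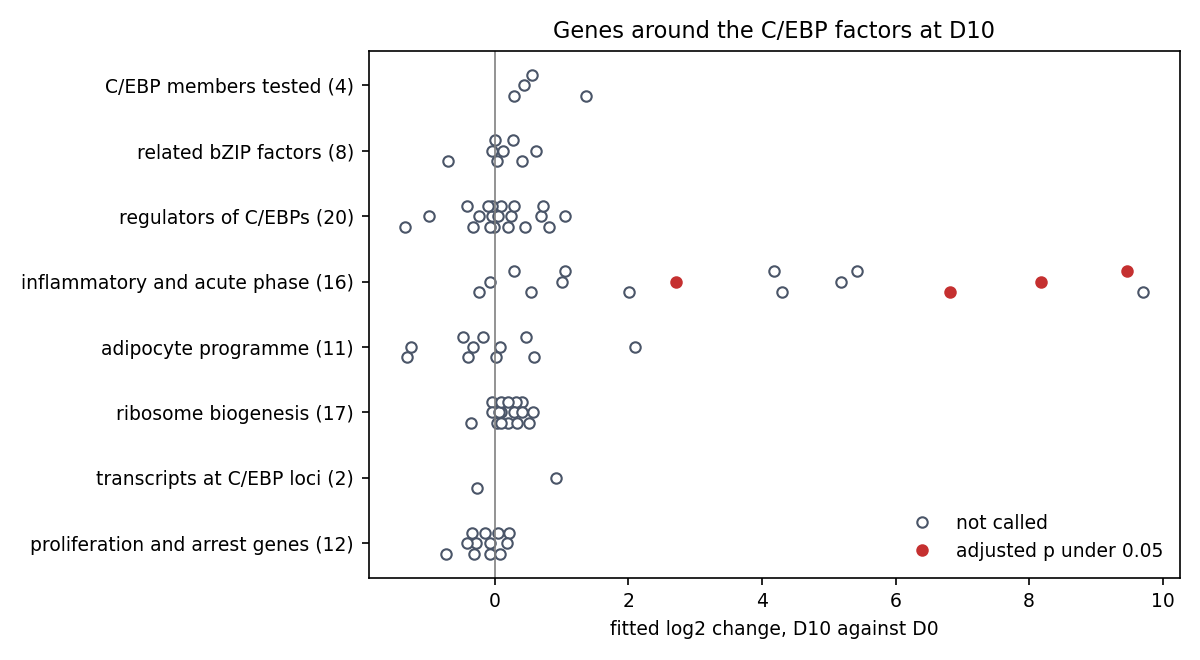
Fitted log2 change of each gene at D10 against D0 by list, with open circles for genes that did not pass, and filled circles for an adjusted p under 0.05. Filled circles appear only in the inflammatory and acute phase list, at C3, CXCL1, IL1B and SOD2. Of these, IL1B and CXCL1 passed the filter on low counts only through their D10 libraries, so they had to differ. The lists were chosen with earlier results of these data known, so the contrast between lists is not read as a result.

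Transcripts at the C/EBP loci were followed too. CEBPB-AS1, antisense to CEBPB, was between 0.251 and 1.42 CPM, while CEBPB lay between 60.6 and 229 CPM. CEBPZOS overlaps exon bases of CEBPZ on the opposite strand. It was at 53.2 and 57.3 CPM at D0, higher in both experiments at D4 (66.3 and 69.6 CPM), and at 52.4 and 39.7 CPM at D10. Its fitted log2 fold changes of 0.30 at D4 and -0.26 at D10 did not pass (edgeR adjusted p = 1 and 0.998). The ratio of CEBPZ to CEBPZOS counts was 0.332 and 0.740 at D0 and 0.461 and 1.44 at D10. Strand handling of the counting is not given, so how reads of the shared bases were assigned is not known.

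The genes with the pattern most like a member across the 8 libraries were found by the root mean square difference of centred log2 CPM. For CEBPB they were SEMA3F (0.14), SQOR (0.14) and NUAK2 (0.15), against a median of 0.66 over all genes. For CEBPD they were ISOC1 (0.23), FTH1 (0.31) and FTH1P23 (0.31), of which the last is a pseudogene that can share reads with FTH1, against 0.81. For CEBPG they were CMSS1 (0.13), C8orf88 (0.15) and BDNF (0.16), and for CEBPZ PPWD1 (0.06), CWC22 (0.09) and MTX3 (0.10). ISOC1 was at 29.7 and 34.0 CPM at D0, 11.6 and 11.9 CPM at D4 and 16.8 and 36.0 CPM at D10.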

How the data were processed

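The deposited table holds raw read counts per gene, as the authors made them, in whole numbers whose totals differ between libraries. The 8 columns of RPM values in the same table were not used. One header reads DO and was taken as D0 replicate 1. Per the labels, poly(A) RNA was made into stranded libraries; the submitters' processing notes list STAR 2.5 and DESeq2, and the counter, annotation and strand setting are not given in the sources used here. Of 27696 identifiers, 99.6% are in GENCODE 29 (GRCh38), the source of positions and exon lengths.

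Genes were filtered with filterByExpr (13798 left), scaled with TMM and tested with edgeR 4.0.16 (glmQLFit, glmQLFTest, R 4.3.3) on all 8 libraries by group, with Benjamini-Hochberg adjustment over all genes and calls at 0.05. The script was tested on simulated data. Alternatives were DESeq2 1.42.0, its size factors, other filters (none, or a minimum of 10 counts in all libraries), a replicate block, a fit of only the compared groups, and leaving out each library; the block without D10 replicate 2, the test between experiments and the list counts under each setting were chosen after seeing the data. Libraries of the same number were taken as paired: the methods give 2 independent experiments, and deviations of same-numbered libraries correlated across genes, which are not independent replicates, with r of 0.418 to 0.722 in all 6 pairs of groups. Replicates of a group differed by more than counting noise. Log2 CPM used a prior count of 2. P-values measure only the spread between these libraries, and counting intervals (95%) and floors cover counting error only.

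DESeq2 shares are of genes with an adjusted p. The members and gene lists were chosen with earlier results of these data known. The text names all members, the called genes of each list (at most 5) or otherwise the 2 with the largest change at D10, and the 3 genes most like each member whose log2 CPM spans at least 1. Figures were drawn with Python 3.11.15.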

Additional observations from a re-analysis of the deposited data

Results flagged for a closer look

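Members whose change against D0 had opposite signs in the 2 experiments are given here. The difference between the experiments was not tested. For CEBPD at D10 the log2 change was -0.31 in experiment 1 and 0.69 in experiment 2. For CEBPG at D10 it was -0.09 and 0.87, and at D4 it was 0.03 and -0.57. For CEBPZ it was 0.22 and -0.23 at D4, and 0.35 and -0.22 at D7. In CEBPG at D10 and D4 and in CEBPZ at D4, the counting interval of experiment 1 includes 0.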

How the results depend on the processing

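With the replicate block the log2 change of CEBPB at D10 against D0 was 1.39 and passed, as it did at 1.36 in DESeq2, 1.37 with no filter and 0.86 with the block and without D10 replicate 2. CEBPD passed at D7 against D0 with the block (-1.36, and -1.34 without D10 replicate 2), and at D10 against D7 in DESeq2 (1.62), with no filter (1.63) and with the block without D10 replicate 2 (1.07). The slope of CEBPB passed in DESeq2 (0.13 per day). The block without D10 replicate 2 turned CEBPD (-0.27) and CEBPG (-0.3) at D10 against D0, and CEBPZ at D7 against D0 was 0.06 with the block and 0.04 without that library. The block changed no other call of a member.

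Leaving out 1 library gave ranges over each member's values. For CEBPB these were -0.1 to 0.49 at D4, -0.01 to 0.52 at D7 against D0, -0.22 to 0.34 for D7 against D4, and 0.08 to 0.16 for the slope, lowest without D10 replicate 2. For CEBPD they were -0.36 to 0.76 for D10 against D0, -0.42 to 0.08 for D7 against D4, 0.97 to 2.09 for D10 against D7 (passed without D10 replicate 1) and -0.07 to 0.05 for the slope. For CEBPG they were -0.56 to 0.03 at D4, -0.91 to -0.32 at D7 and -0.42 to 1.15 at D10 against D0, and -0.06 to 0.09 for the slope. For CEBPZ they were -0.58 to 0.68 at D4, -0.52 to 0.74 at D7 and -0.32 to 1.19 at D10 against D0, -0.33 to 0.52 for D7 against D4, -0.29 to 0.96 for D10 against D7 and -0.02 to 0.11 for the slope. The cause was not tested.

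Genes called at D4 against D0 numbered 44 in DESeq2, 21 with no filter and 38 with the block. At D7 they numbered 112, 93 and 172, and 778 with the block without D10 replicate 2. At D10 they numbered 379, 371 and 688, and 896 without that library, 20 with at least 10 counts everywhere and 0 with the compared groups only. For D7 against D4 the number was 1 in DESeq2 and 1 with no filter. For D10 against D7 it was 66, 77 and 44, and 76 without that library. For the slope it was 488 in DESeq2 and 593 with the block. Without 1 library the numbers ran from 0 to 155 at D10, from 0 to 47 for D10 against D7 and from 36 to 155 for the slope. Shares at D0 to D10 moved most with no length scaling, where the CEBPG share was 13.8% at D0.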
